A study of Homo sapiens with 9 samples.

Results

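The nuclear genes for subunits of the mitochondrial respiratory chain and ATP synthase were followed in MDA-MB-231, a human triple-negative breast cancer line, after knockdown of the long noncoding RNA MILIP. Members were chosen by name from a table of 60612 genes: NDUFA, NDUFB, NDUFC, NDUFS or NDUFV with a number, UQCR, COX4I, COX5, COX6, COX7, COX8 and ATP5 names, SDHA to SDHD, and CYC1. Leaving out 150 pseudogene names and 5 names with a hyphen gave 88 members, 38 for complex I, 4 for complex II, 10 for complex III, 17 for complex IV and 19 for ATP synthase. RNA of cells 48 hours after transfection with a negative control siRNA, MILIP siRNA1 or MILIP siRNA2 was sequenced, with 3 libraries a group and 9 in all. The groups share the line and the transfection, and the labels do not name separate cultures behind the 3 replicates, so every p-value here rests on variation that may be technical. One protocol text names PLANE as the siRNA target where the treatment labels name MILIP.

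Complex I takes electrons from NADH and complex II, which is also the citrate cycle enzyme succinate dehydrogenase, takes them from succinate. Both pass them through ubiquinone to complex III, and cytochrome c carries them on to complex IV, which reduces oxygen. The proton gradient built on the way drives ATP synthase, whose F1 head makes ATP as the c-ring in the membrane turns. Complex II is wholly nuclear-encoded, and the other complexes also hold core subunits made from mitochondrial DNA.

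Total counts ranged from 15281220 to 19759371 per library, and 15345 genes had enough counts to be tested. MILIP is listed as MAFG-DT. Its counts were 133, 126 and 148 in the control group, 19, 11 and 37 after siRNA1 and 10, 19 and 6 after siRNA2, which left 14.7% and 7.32% of the control level. An exact two-sided permutation test gave p = 0.1 for each, the smallest that 3 against 3 libraries allow. The 6 marker genes of the line (VIM, CD44, EGFR, KRT8, KRT18 and AXL) summed to 7852 to 8337 counts per 1e+06 counts after TMM scaling (CPM) in the control group, 7144 to 7730 after siRNA1 and 6500 to 6595 after siRNA2. They did not keep their levels: AXL fell with both siRNAs (log2 fold change -3.28 and -1.88), as did EGFR (-1.10 and -0.79). KRT8 rose with both, from 464 to 1066 and 582 CPM. Of the 6, 2 rose and 3 fell with siRNA1, and 2 rose and 4 fell with siRNA2. Of 6 luminal and receptor markers (ESR1, PGR, ERBB2, CDH1, KRT19 and GATA3) 4 were tested. With siRNA1 2 rose and 1 fell, and with siRNA2 2 rose and 0 fell. They summed to 223 to 262 CPM in the control group, 245 to 298 after siRNA1 and 327 to 352 after siRNA2. Of the leukocyte markers PTPRC and CD3E had at most 1 count in a library, while CD14 was not called with siRNA1 and rose with siRNA2 (1.99), and that list summed to 1.73 to 2.76, 0.73 to 2.21 and 8.17 to 8.79 CPM in the 3 groups. Of 4 endothelial markers CDH5 and VWF had at most 12 counts in a library, PECAM1 and KDR fell with siRNA1 and rose with siRNA2 (0.62 and 1.53), and their list summed to 8.78 to 11.1, 5.78 to 7.09 and 18.4 to 20.4 CPM. Of 6 fibroblast markers 4 were tested; 2 rose with siRNA1 and 4 with siRNA2, and the list summed to 8.09 to 11.3 CPM in the control group, 48.7 to 57.7 after siRNA1 and 69.8 to 73.1 after siRNA2, while DCN and LUM stayed at 6 counts or fewer in every library. The part of these markers in the results was not tested. Control library 3 and siRNA1 library 2 stood apart from the others of their groups, with a chi-square per gene of 7.17 to 8.42 and 6.11 to 7.54 against 2.79 and 2.43 for the other pair.

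The members that stood furthest from their complex differed between the siRNAs, and the short sites below show what COX8A, the one member that fell with siRNA1, shares with MILIP. Each line holds 30 bases of an exon, written 5′ to 3′ on the transcript's strand in GRCh38, with capitals for a 7-base word that an earlier search of these same fold changes had linked to lower transcripts with 1 siRNA. The siRNA sequences themselves were not used here.
MILIP, siRNA1 word, chr17:81930349-81930378, plus strand: ggagtcagggcAATTCCAaccaagaaactg
COX8A, 3′ UTR, siRNA1 word, chr11:63976413-63976442, plus strand: tcatgtcattcAATTCCAgtcacctcttct
MILIP, siRNA2 word, chr17:81930473-81930502, plus strand: ggtaacatagaGACCCTAtcgctacaagaa
The run of letters that COX8A shares with MILIP at this site is 8 bases long. NDUFB6 shares 9 with this MILIP site and did not pass the test with siRNA1 (log2 fold change -0.19). NDUFA5 shares 9 with another MILIP site, not printed here (chr17:81928137-81928166), and rose with siRNA1. ATP5MG shares 9 with the printed siRNA2 site and fell with siRNA2 (-0.29). The genes with the largest falls under siRNA2, COX6B1, ATP5PB and COX5B, hold neither word nor its form 1 base along in their annotated 3′ UTRs.

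Of the 88 members, 81 had enough counts to be tested, and the other 7 were at or near 0 in all groups. In control libraries the chain was expressed over a wide range. Levels of different genes are compared in FPKM (fragments scaled to exonic size and library total), which depends on the exonic size the table gives a gene. The highest tested member was COX8A, the small complex IV subunit VIII of most tissues, at 825 ± 45.9 FPKM in control libraries (SD, n = 3). ATP5F1B, the catalytic beta subunit of F1, came next at 476 ± 15.3, before COX6A1 at 303 ± 22.4 and NDUFS5 at 292 ± 24.0, whose spreads overlap. The lowest tested member was NDUFA7 at 0.573 ± 0.0115 FPKM, a gene that overlaps the ribosomal protein gene RPS28 on the opposite strand in this table. By complex, the median control level was 69.5 FPKM over the 12 tested complex IV genes, 54.8 for complex III, 45.0 for ATP synthase, 19.6 for complex I and 16.6 for complex II. The highest and lowest tested members were NDUFS5 and NDUFA7 in complex I, SDHB (50.1) and SDHA (11.1) in complex II, CYC1 (172) and UQCRB (6.89) in complex III, COX8A and COX7A2L (20.2) in complex IV, and ATP5F1B and ATP5PO (12.0) in ATP synthase.

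Several subunits come in pairs with a widespread and a tissue-restricted form, and MDA-MB-231 used the widespread form with 1 exception. COX4I2, the form of subunit IV prominent in lung, had 0 counts in all 9 libraries, against 65.8 ± 4.99 FPKM for COX4I1 in control libraries. The heart and muscle form COX6A2 also had 0 counts. COX6B2 and COX8C, known from testis, had 9 and 3 counts over all libraries. The muscle form COX7A1 had 11, 19 and 18 counts in the 3 groups, against 46.0 ± 3.88 FPKM for COX7A2, and NDUFA4L2, a hypoxia-induced relative of NDUFA4, had 3 counts in all. For a library at 0 the limit that counting error allows is 3 counts, equal to 0.152 CPM in the deepest and 0.198 CPM in the shallowest library. The exception was COX7B2, a relative of COX7B known from testis, at 25.9 ± 1.98 FPKM beside 35.9 ± 2.84 for COX7B. COX7B2 lay at 21.7, 19.6 and 22.8 CPM in the control group, 26.3, 27.4 and 28.3 after siRNA1, and 27.3, 31.0 and 30.6 after siRNA2. Every library of either siRNA was above every control library, and COX7B2 rose with siRNA1 (log2 fold change 0.36, SE 0.090, adjusted p = 0.0019) and with siRNA2 (0.47, SE 0.090, adjusted p = 7.5e-05). Here adjusted p is that of edgeR's quasi-likelihood fit after Benjamini-Hochberg correction over all tested genes, and "rose" and "fell" mark an adjusted p below 0.05.

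Most of the chain rose with siRNA1. Of the 81 tested members 56 rose, 1 fell and 24 did not pass the test, and their median log2 fold change was 0.26, against 0.0032 over all tested genes. Over all tested genes 50.4% passed this test, 25.1% higher and 25.3% lower. The members that rose did so by little: no member reached a called doubling, and 73 of 81 had a positive log2 fold change. Summed over all members, the level was 9564, 9719 and 10823 CPM in the control group, 11649, 10893 and 11826 after siRNA1, and 9377, 9083 and 9074 after siRNA2. The control libraries lay below the siRNA1 libraries and above the siRNA2 libraries, with control library 3 nearest to siRNA1. In bulk RNA a change of the mean over cells and a change in some of the cells cannot be told apart.

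**Figure D1:**
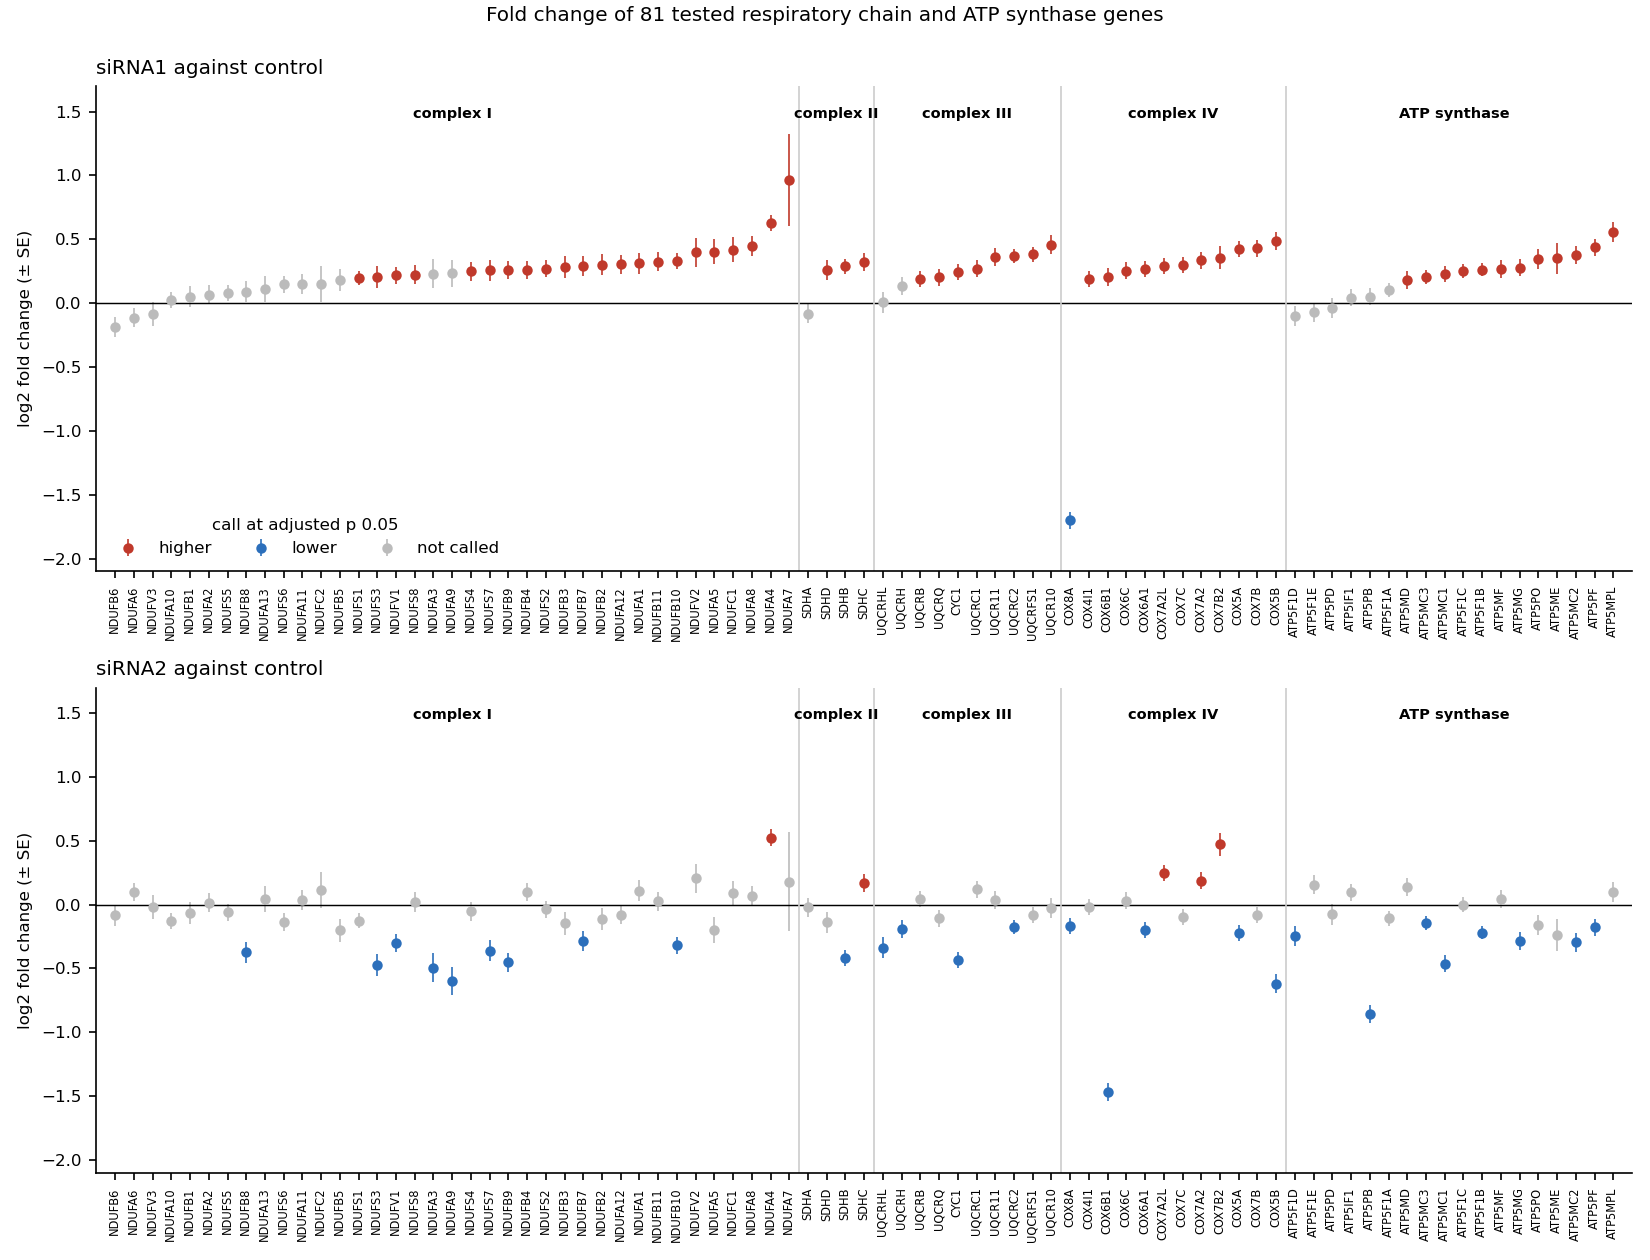
Log2 fold change (vertical axis, ± SE) of the 81 tested members against control, with siRNA1 above and siRNA2 below, ordered within each complex by the siRNA1 value; red and blue mark members called higher and lower at an adjusted p of 0.05. With siRNA1 56 members lie above 0 in red and COX8A alone in blue, and with siRNA2 5 are red and 27 blue, COX6B1 lowest at -1.47.

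With siRNA2 the balance was the other way and weaker. Of the 81 tested members 5 rose, 27 fell and 49 did not pass the test, with a median log2 fold change of -0.08 against -0.01 over all tested genes, of which 56.1% passed the test, 27.2% higher and 28.9% lower. The share of members that fell, 33.3%, is close to the 28.9% of all tested genes, and the share that rose, 6.17%, is below the 27.2%. The median rests on control library 3, without which it was -0.0028, with 22 members lower and 10 higher. The count of 5 that rose became 3 without control library 2 or siRNA2 library 1. Both siRNAs were set against the same 3 control libraries.

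The siRNAs were also compared with each other. The control group does not enter this difference, but the filter, scaling and spread came from the fit of all 9 libraries. Of the 81 tested members 57 were lower with siRNA2 than with siRNA1, 3 were higher and 21 did not pass the test. The median log2 difference was -0.33, against -0.03 over all tested genes, of which 60.4% passed, 28.4% higher and 32.0% lower with siRNA2. The 3 that were higher with siRNA2 were COX8A, the complex I subunit NDUFA6 (0.21) and ATP5F1E, the epsilon subunit of F1 (0.23). In a fit of the 2 siRNA groups alone 54 members were lower and 3 higher with siRNA2, with a median of -0.30.

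In complex I, 22 of 37 tested genes rose with siRNA1 (59.5%, against 25.1% of all tested genes) and 0 fell, while with siRNA2 1 rose and 9 fell. The share that fell, 24.3%, is below the 28.9% of all tested genes. The summed complex I level was 2562 ± 203 CPM in the control group, 2987 ± 141 after siRNA1 and 2387 ± 52.1 after siRNA2 (SD, n = 3 each). NDUFA4 is named for complex I but its product is now known as a subunit of complex IV. It lay at 71.6, 63.1 and 70.3 CPM in the control group, 108, 106 and 103 after siRNA1 and 98.6, 101 and 95.2 after siRNA2. All 6 libraries with a MILIP siRNA were above all control libraries, and NDUFA4 rose after siRNA1 (log2 fold change 0.63, SE 0.065, adjusted p = 1.54e-08) and after siRNA2 (0.52, SE 0.065, adjusted p = 2.13e-07).

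NDUFA9, a subunit at the joint of the membrane and peripheral arms, was the complex I gene that fell most with siRNA2. Its libraries held 23.2, 23.1 and 30.9 CPM in the control group, 30.9, 30.6 and 29.5 after siRNA1 and 19.4, 16.2 and 15.4 after siRNA2. The siRNA2 libraries were below all others (log2 fold change against control -0.60, SE 0.111, adjusted p = 6.16e-05), and the siRNA1 libraries overlapped control library 3 (0.23, adjusted p = 0.07). NDUFA3 and NDUFS3, an accessory and a core subunit, also fell with siRNA2, by 0.49 and 0.47 on the log2 scale. NDUFA8, an accessory subunit of the intermembrane space side, rose with siRNA1 by a log2 fold change of 0.45 and was at 0.07 with siRNA2. NDUFA7 had the largest fold change with siRNA1 (0.97, SE 0.360) on a level of 0.81 CPM, and its call was lost when any library of control or siRNA1 but siRNA1 library 2 was left out (adjusted p = 0.0621 to 0.104). The core subunits NDUFV1, NDUFS3 and NDUFS7 and the membrane arm subunits NDUFB7, NDUFB9 and NDUFB10 were called higher with siRNA1 and lower with siRNA2. Their log2 fold changes lay between 0.20 and 0.33 with siRNA1 and between -0.47 and -0.28 with siRNA2. NDUFS3, NDUFS7 and NDUFV1 lost the siRNA1 call when single libraries were left out, among them control library 1 (adjusted p = 0.238, 0.0758 and 0.0794). The siRNA1 call of NDUFS3 was also lost with DESeq2 (adjusted p = 0.0663), median-of-ratios scaling (0.0521), both limma fits (0.0798 and 0.0824) and a fit of the 2 groups alone (0.0691), and its log2 fold change of 0.20 went to 0.13 when control library 1 was left out and to 0.11 when siRNA1 library 3 was.

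The 4 complex II genes did not move as one. SDHA, the flavoprotein that oxidises succinate, passed the test with neither siRNA, with log2 fold changes of -0.08 and -0.02. SDHB, the iron-sulfur subunit, held 113, 118 and 121 CPM in the control group, 150, 135 and 145 after siRNA1, and 89.7, 84.9 and 89.0 after siRNA2. The 3 groups did not overlap, and SDHB rose with siRNA1 (0.29, SE 0.061, adjusted p = 0.000354) and fell with siRNA2 (-0.42, SE 0.062, adjusted p = 3.01e-06). The membrane anchor SDHC rose with both, by 0.32 and 0.17, although the second call was lost without control library 2, siRNA2 library 1 or siRNA2 library 2 (adjusted p = 0.0917 to 0.194). The other anchor, SDHD, rose with siRNA1 (0.26) and was at -0.14 with siRNA2; its siRNA1 call was lost without control library 2 (adjusted p = 0.0857).

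In complex III, 8 of 10 genes rose with siRNA1 (80.0%, against 25.1% of all tested genes) and 0 fell. With siRNA2 0 rose and 4 fell (40.0%, against 28.9% of all tested genes). CYC1, the cytochrome c1 that hands electrons to cytochrome c, held 322, 346 and 352 CPM in the control group, 435, 367 and 408 after siRNA1 and 257, 253 and 246 after siRNA2. Again no group overlapped another; CYC1 rose by 0.25 (SE 0.061, adjusted p = 0.00153) and fell by 0.43 (SE 0.061, adjusted p = 1.43e-06) on the log2 scale. UQCRC2, a core protein, followed the same order with 0.37 and -0.18, the latter lost without the filter on low counts (adjusted p = 0.0723). The small subunit UQCR10 had the largest rise with siRNA1 (0.46) and was at -0.03 with siRNA2, and UQCRFS1, the Rieske iron-sulfur protein, rose with siRNA1 (0.38) and was at -0.08 with siRNA2. UQCRH, the hinge protein, and its near copy UQCRHL were called lower with siRNA2 (-0.19 and -0.34). Reads of these 2 genes may have been split between them, so their separate values are uncertain, and the UQCRH call was lost without control library 3 and without siRNA2 library 1 or 3 (adjusted p = 0.0672 to 0.14), with no filter (0.0718), at a minimum mean FPKM of 1 (0.0524) and with the trend on exonic size removed (0.0663). Between the siRNAs 9 of 10 complex III genes were lower with siRNA2.

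**Figure D2:**
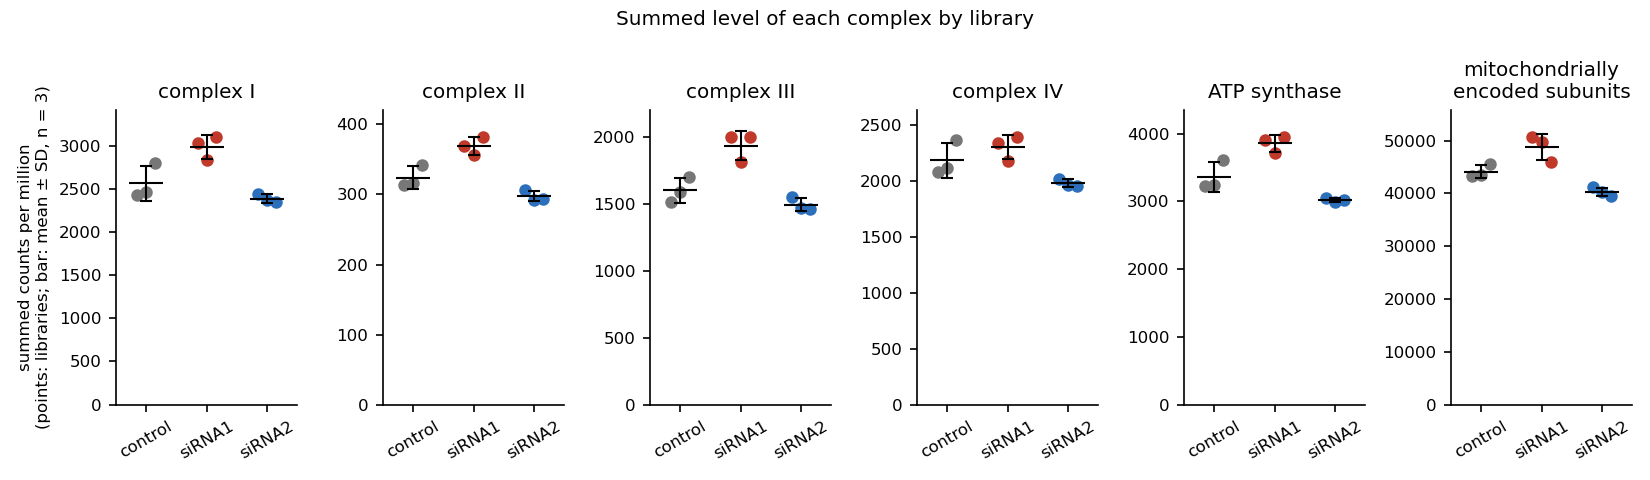
Summed level of each complex (vertical axis, CPM from 0; points are libraries, bars mean ± SD, n = 3) in control, siRNA1 and siRNA2 libraries, with the 13 mitochondrially encoded subunits at the right. In complexes I, II, III and ATP synthase each siRNA1 library lies above each control library, and in complex IV the control and siRNA1 points overlap.

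Complex IV held the member with the largest change for each siRNA, COX8A for siRNA1 and COX6B1 for siRNA2, both of them falls. All 12 tested genes were called with siRNA1, 11 higher (91.7%, against 25.1% of all tested genes) and COX8A lower. With siRNA2 3 rose and 5 fell (41.7%, against 28.9% of all tested genes). COX8A (ENSG00000176340, chr11:63974620-63976543, plus strand) lay at 384, 414 and 435 CPM in the control group, 132, 114 and 133 after siRNA1 and 363, 368 and 365 after siRNA2. The siRNA1 libraries held less than any other library by a wide gap, and the fall was -1.70 on the log2 scale (SE 0.064, adjusted p = 9.47e-17). With siRNA2 it was -0.17 (SE 0.061, adjusted p = 0.0218), a call lost with DESeq2 (adjusted p = 0.0501), without the filter (0.0642), at a minimum mean FPKM of 1 (0.0581), and without control library 2 or 3 or any 1 siRNA2 library (0.0516 to 0.0753). It was lost also with the trend on exonic size removed (adjusted p = 0.488). COX8A lies on the same strand as AP000721.1, which it overlaps. Because COX8A is the most expressed member per length, the summed complex IV level fell with siRNA1 in FPKM, from 1737 ± 104 to 1407 ± 72.2, while in CPM it was 2185 ± 156 and 2301 ± 110, with overlapping libraries.

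COX6B1, a nuclear-encoded subunit facing the intermembrane space, showed the opposite pattern. It lay at 116, 117 and 131 CPM in the control group, 145, 127 and 148 after siRNA1, and 43.3, 45.2 and 43.3 after siRNA2. The siRNA2 libraries were far below the other 6, with a log2 fold change of -1.47 (SE 0.072, adjusted p = 1.5e-14), the only called halving among the members with siRNA2. With siRNA1 COX6B1 was called higher (0.20, adjusted p = 0.015), a call lost without control library 1 or 2 or siRNA1 library 1 or 3 (adjusted p = 0.0719 to 0.107). COX6B1 (chr19:35648323-35658782, plus strand) overlaps no other gene of the table.

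COX5B, a subunit on the matrix side, moved in opposite directions. Its libraries held 96.9, 101 and 117 CPM in the control group, 150, 136 and 155 after siRNA1 and 67.9, 71.1 and 65.6 after siRNA2. The 3 groups did not overlap; its log2 fold change was 0.49 for siRNA1 (SE 0.071, adjusted p = 3.21e-06) and -0.62 for siRNA2 (SE 0.073, adjusted p = 9.25e-08), and siRNA2 differed from siRNA1 by -1.11 (adjusted p = 1.8e-12). Its partner COX5A had 0.42 and -0.22, and COX6A1 0.26 and -0.20, all called, although the COX6A1 call with siRNA2 was lost without control library 3 (adjusted p = 0.0521). COX7B rose with siRNA1 (0.43) and was at -0.08 with siRNA2. COX4I1, a subunit of the earliest assembly steps, was called higher with siRNA1 (0.19, adjusted p = 0.0137) and lost the call without control library 1 or 2 or siRNA1 library 1 or 3 (adjusted p = 0.0568 to 0.114). COX7A2 and COX7A2L, the latter of which links complexes III and IV in supercomplexes, were called higher with both, at 0.34 and 0.29 with siRNA1 and at 0.19 and 0.25 with siRNA2. The COX7A2 call with siRNA2 was lost without control library 2 or siRNA2 library 1 or 3 (adjusted p = 0.0595 to 0.138).

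**Figure D3:**
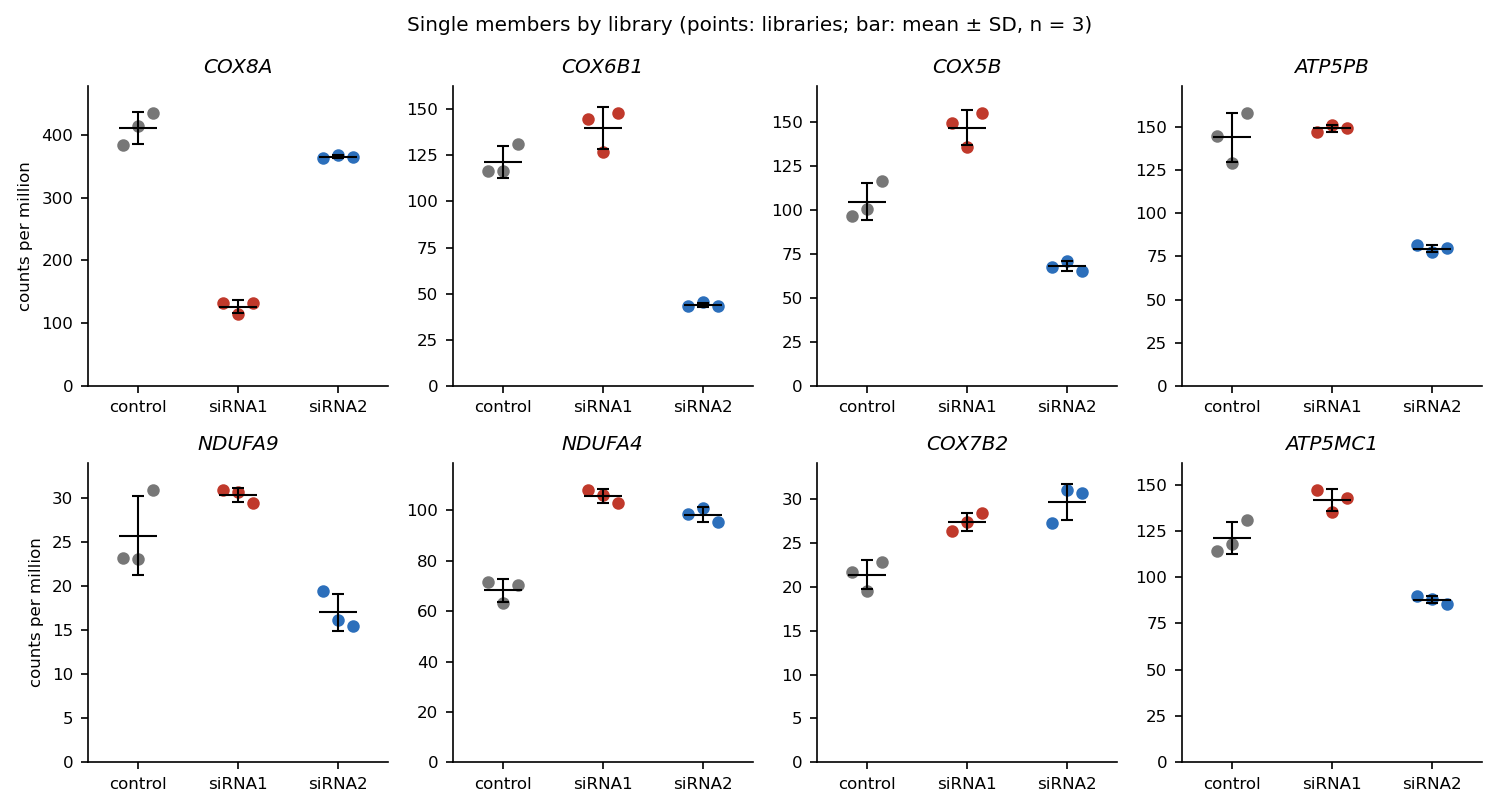
CPM (vertical axes, from 0) of 8 members in each library, with mean ± SD (n = 3). COX8A is lowest in the siRNA1 libraries (114 to 133 CPM), COX6B1 in the siRNA2 libraries (43.3 to 45.2 CPM), and NDUFA4 is higher in all libraries of both siRNAs.

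Of 18 tested ATP synthase genes 12 rose with siRNA1 (66.7%, against 25.1% of all tested genes) and 0 fell. With siRNA2 0 rose and 8 fell (44.4%, against 28.9% of all tested genes). ATP5PB, the b subunit of the peripheral stalk that holds F1 still, had the largest fall with siRNA2. It lay at 145, 129 and 158 CPM in the control group, 147, 151 and 149 after siRNA1 and 81.4, 77.4 and 80.0 after siRNA2. Control and siRNA1 libraries overlapped (log2 fold change 0.05, adjusted p = 0.553), and all siRNA2 libraries were lower (-0.86, SE 0.067, adjusted p = 7.89e-11). ATP5PB overlaps WDR77 on the opposite strand, and the sources used here do not say whether the counting used strand. Other stalk genes did not share this fall: ATP5PD was at -0.08, ATP5PO at -0.16 (neither called), and ATP5PF was called at -0.18, a call lost under 9 alternatives, among them the omission of control library 3 (adjusted p = 0.171).

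In the F1 head, ATP5F1B held 1039, 1062 and 1118 CPM in the control group, 1288, 1249 and 1319 after siRNA1 and 933, 895 and 935 after siRNA2, so no group overlapped another. It rose by 0.26 (SE 0.050, adjusted p = 0.000118) with siRNA1 and fell by 0.22 (SE 0.050, adjusted p = 0.000598) with siRNA2. The alpha subunit gene ATP5F1A passed neither test, with 0.10 and -0.11. ATP5MC1, ATP5MC2 and ATP5MC3 encode the same mature c-ring protein with different import signals, and each was called higher with siRNA1 and lower with siRNA2. In that order their log2 fold changes were 0.23, 0.38 and 0.20 for siRNA1, against -0.46, -0.30 and -0.14 for siRNA2. The ATP5MC3 call with siRNA2 was lost with DESeq2 (adjusted p = 0.0623), with median-of-ratios scaling, with either other filter and without any 1 library of 5 of the 6, and the ATP5MC1 call with siRNA1 without siRNA1 library 1 (adjusted p = 0.0509). ATP5MG, a subunit at the dimer interface, had 0.28 and -0.29. The small subunit ATP5MPL rose most with siRNA1 (45.3 ± 4.91 to 66.7 ± 3.68 CPM, log2 fold change 0.56, adjusted p = 2.22e-06) and was at 0.10 with siRNA2. ATP5IF1, which inhibits ATP synthase when it runs in reverse, passed neither test (0.04 and 0.10).

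Of the 13 subunits encoded by mitochondrial DNA 6 rose and 0 fell with siRNA1 (46.2% higher, against 25.1% of all tested genes). With siRNA2 0 rose and 6 fell (46.2% lower, against 28.9%). All 13 were lower with siRNA2 than with siRNA1 (against 32.0% of all tested genes), with a median log2 difference of -0.30. Their sum was 43288 to 45502 CPM in the control group, 45928 to 50654 after siRNA1 and 39513 to 41111 after siRNA2. MT-ND1, a complex I core subunit, had 0.31 with siRNA1 and 0.00012 with siRNA2, and MT-ATP8 of ATP synthase -0.14, not called, and -0.42, called.

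Assembly factors are proteins that build the complexes without staying in them. Of 57 listed factors 34 fell and 4 rose with siRNA2, with a median log2 fold change of -0.28, and 21 rose and 8 fell with siRNA1, with a median of 0.13. The shares are 59.6% lower with siRNA2, against 28.9% of all tested genes, and 36.8% higher with siRNA1, against 25.1%. ATPAF1, a chaperone of the F1 beta subunit, went from 37.8 ± 3.12 CPM to 51.2 ± 3.40 after siRNA1 (log2 0.44, adjusted p = 0.000164) and to 7.78 ± 1.04 with siRNA2 (-2.28, adjusted p = 3.84e-15). FMC1, which works with a partner chaperone of F1, had 0.37 and -0.89; the first call was lost without control library 1 (adjusted p = 0.1). HIGD2A, a factor of complex IV and supercomplexes, fell with both, from 76.3 ± 1.75 CPM to 32.8 ± 2.41 (-1.22) and 18.1 ± 0.417 (-2.07). COX20, a chaperone of the mitochondrially encoded COX2 protein, rose with both (1.03 and 0.64). UQCC3, a factor for cytochrome b, was at 0.05 with siRNA1 and fell with siRNA2 (-1.07), and SDHAF3, a factor for SDHB, fell with both, from 5.79 ± 1.12 CPM to 2.89 ± 0.422 and 3.32 ± 0.780.

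Among 14 enzymes of the citrate cycle, which feeds the chain, 6 rose and 3 fell with siRNA1, and 2 rose and 6 fell with siRNA2. That is 42.9% higher with siRNA1 and 42.9% lower with siRNA2, against 25.1% and 28.9% of all tested genes. Malate dehydrogenase MDH2 had 0.40 and -0.47 and citrate synthase CS 0.36 and -0.25. IDH2 rose with siRNA1 (0.78), was at -0.03 with siRNA2 and differed between them by -0.81 (adjusted p = 2.31e-09), and IDH3A fell with both (-1.06 and -0.62). Of 14 electron and metabolite carriers 7 rose and 3 fell with siRNA1 and 2 rose and 9 fell with siRNA2 (64.3%, against 28.9%). VDAC1, the outer membrane channel, went from 339 ± 12.6 CPM to 326 ± 1.06 with siRNA1, not called, and to 167 ± 3.80 with siRNA2 (-1.03, adjusted p = 4.77e-14). DHODH and GPD2, which pass electrons to ubiquinone from pyrimidine synthesis and glycerol phosphate, were called lower with both, at -0.37 and -1.16 with siRNA1 and at -1.23 and -0.82 with siRNA2. Of the ADP/ATP carriers SLC25A4 had 0.34 and -0.62, and SLC25A6 -0.83 and -0.40.

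**Figure D4:**
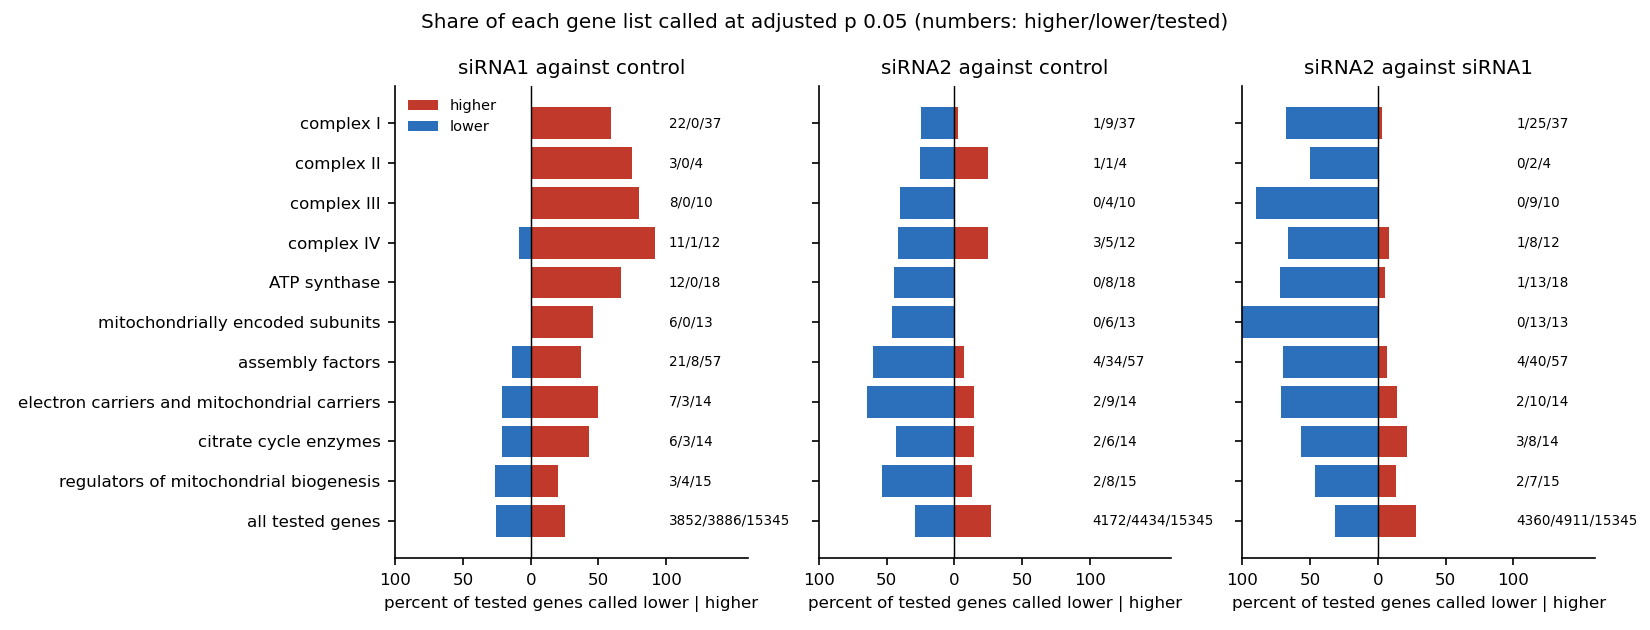
Percent of the tested genes of each list called higher (red, to the right) or lower (blue, to the left) at an adjusted p of 0.05 in the 3 comparisons, with counts printed as higher/lower/tested. All 5 complexes lean to higher with siRNA1, and each of the 10 lists plotted leans to lower between siRNA2 and siRNA1, where all tested genes stand at 28.4% higher and 32.0% lower.

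Of 15 tested regulators of mitochondrial biogenesis 3 rose and 4 fell with siRNA1, 20.0% and 26.7%, close to the 25.1% and 25.3% of all tested genes. With siRNA2 2 rose and 8 fell (53.3%, against 28.9%). ESRRA, a nuclear receptor that activates mitochondrial genes, went from 121 ± 4.03 CPM to 187 ± 15.1 with siRNA1 (0.63, adjusted p = 7.01e-08) and to 99.6 ± 9.88 with siRNA2 (-0.28, adjusted p = 0.00194). The coactivator PPARGC1A was low at 3.60 ± 0.546 CPM and was called higher with both (1.24 and 0.55, the latter lost without siRNA2 library 3, adjusted p = 0.0746, and on FPKM). Its relative PPARGC1B was at 0.25 with siRNA1, not called, and at -1.16 with siRNA2, called, and the third relative PPRC1 fell with both (-0.46 and -0.89). GABPB1, a subunit of an ETS-family factor, also fell with both (-0.69 and -0.33). Its partner subunit GABPA rose with both (0.36 and 0.39).

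Promoters were searched because so many members moved together. RefSeq promoters of GRCh38.p14, 250 bases before to 50 after a start, matched 66 of the 81 tested members. The NRF1 word GCGCATGC was in 13 of these (19.7%), against 5.38% of 10796 promoters of tested genes and 3.27% of all 27305 promoters of that length, counting both strands. The YY1 word AAGATGGC was in 16.7% against 5.32%, the ETS word CCGGAAGT in 15.2% against 8.64%, and the ERR word CAAGGTCA in 6.06% against 0.732% of promoters of tested genes. No word contains another. COX5B and SDHB are shown because, of the holders of the NRF1 word, they differed most between the siRNAs; capitals mark the NRF1 word on either strand, the ETS word (COX5B) and the YY1 word (SDHB).
COX5B promoter, chr2:97645812-97646111, plus strand: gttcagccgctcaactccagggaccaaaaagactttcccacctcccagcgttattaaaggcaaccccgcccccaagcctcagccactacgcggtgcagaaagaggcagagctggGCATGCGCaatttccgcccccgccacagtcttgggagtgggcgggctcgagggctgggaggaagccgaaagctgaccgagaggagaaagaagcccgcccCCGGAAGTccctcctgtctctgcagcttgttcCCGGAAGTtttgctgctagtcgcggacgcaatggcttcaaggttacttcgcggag
SDHB promoter, chr1:17053983-17054282, minus strand: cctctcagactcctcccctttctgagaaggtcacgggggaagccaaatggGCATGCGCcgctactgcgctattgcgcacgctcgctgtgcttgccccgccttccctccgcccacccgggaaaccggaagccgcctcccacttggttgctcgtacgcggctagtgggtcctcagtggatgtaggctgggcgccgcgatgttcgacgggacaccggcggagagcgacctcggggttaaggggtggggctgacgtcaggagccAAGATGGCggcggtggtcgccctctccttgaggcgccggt
Members with the NRF1 word had a median of 0.26 with siRNA1 and -0.18 with siRNA2, and those without it 0.23 and -0.08. Between the siRNAs 12 of the 13 holders were lower with siRNA2 and NDUFA6 was higher, and of the 53 members without the word 36 were lower, against 32.0% of all tested genes. The medians between the siRNAs were -0.46 with the NRF1 word and -0.33 without it. The ETS word went the other way with siRNA1, with medians of 0.19 in its 10 holders and 0.27 in the 56 others. It did so too between the siRNAs (-0.32 and -0.40), but not with siRNA2 (-0.12 and -0.08). The 11 holders of the YY1 word and the 55 others had 0.26 and 0.26 with siRNA1 and -0.18 and -0.08 with siRNA2. Between the siRNAs they had -0.62 and -0.33. The 4 holders of the ERR word, COX8A among them, and the 62 others had 0.27 and 0.26 with siRNA1. Their medians were -0.18 and -0.08 with siRNA2, and -0.48 and -0.33 between the siRNAs. These differences between holders and others were not tested. A word match is a description of these letters and not a binding site.

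The siRNA1 word AATTCCA or its form ATTCCAA was in an annotated 3′ UTR of 12 of 81 tested members (14.8%), against 25.5% of tested genes with an annotated 3′ UTR. The median longest 3′ UTR was 3890 bases in members with the word and 275 in those without. Over all tested genes it was 2908.5 and 1017 bases. The part of 3′ UTR length in these shares was not tested. Of these 12, 6 rose and COX8A fell with siRNA1, and of the 69 without it 50 rose and 0 fell. The median with siRNA1 was 0.19 for members with the word and 0.26 without, against -0.19 and 0.05 over all tested genes. The siRNA2 word GACCCTA or its form ACCCTAA was in 10 members (12.3%, against 12.1%), whose median with siRNA2 was -0.12, with -0.08 in the 71 others. MILIP holds GACCCTA and not ACCCTAA, while NDUFA9, ATP5MC3 and COX7A2L hold only ACCCTAA. Among the 10, NDUFA9, ATP5MG and ATP5MC3 fell with siRNA2, COX7A2L rose and the other 6 were not called. Of the 71 others 24 fell with siRNA2, and of all tested genes 28.9% fell. The median with siRNA2 over all tested genes was -0.21 with the word and 0.03 without. Both words were chosen on these fold changes, so the all-gene medians are not independent of the choice.

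Members are short genes, and size went only weakly with the fold change. Over all tested genes Spearman's rho was -0.09 with siRNA1, 0.03 with siRNA2 and 0.10 between the siRNAs. Within the members it was -0.15, -0.04 and 0.006. The members' median exonic size was 2324 bases against 4763 over all tested genes, and 47 of 81 were no longer than 2790 bases, the lower quartile. Over all genes up to that size the median log2 fold change was 0.07 with siRNA1, with 24.1% called higher and 15.0% lower, and -0.04 with siRNA2. After the trend on exonic size was removed, a setting chosen after the data were seen, the members' median was 0.22 with siRNA1, went from -0.083 to -0.047 with siRNA2, and from -0.33 to -0.25 between the siRNAs. Another limit is overlap, as 34 tested members overlap an opposite-strand gene and 20 a same-strand gene. A member can be in both counts. Of the 38 that overlap no gene 30 rose and 0 fell with siRNA1, and 4 rose and 13 fell with siRNA2. Over all tested genes 25.1% rose and 25.3% fell with siRNA1, and 27.2% rose and 28.9% fell with siRNA2. Rows with pseudogene names held counts equal to 0.182% of the members' counts.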

How the data were processed

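Counts per gene and FPKM values were deposited by the authors in 1 table of 9 libraries. Per the submitters' processing notes Trimmomatic 0.30, HISAT2 2.0.1, HTSeq 0.6.1 and DESeq were used, with no role given. The notes name hg19, while all 88 members overlap their own GENCODE v29 (GRCh38) gene on the same strand, 36 with identical start and end. The deposited FPKM follow from the counts, exonic size and library total within 0.005 for 100% of values. The sources used here do not give the strandedness.

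Genes passing filterByExpr (minimum count 10, minimum total 15) were scaled by TMM and tested in 1 fit of the 3 groups with edgeR 4.0.16 (R 4.3.3), quasi-likelihood, two-sided, Benjamini-Hochberg adjusted, called below 0.05. The common coefficient of biological variation came to 0.0641. The steps were tested on simulated data. No library pair agreed within sampling noise. Alternatives were median-of-ratios scaling, DESeq2 1.42.0, limma 3.58.1 on log2(FPKM+1) and log2(FPKM+0.1), a mean FPKM of at least 1 or no filter, a replicate block, fits of only the groups compared, omission of each library, and a size trend removed, the last chosen after the data were seen. Python 3.11.15 served for words and figures (matplotlib 3.10.9). The members, the gene lists and the words were chosen with earlier results of these data known. Named are, per complex and comparison, the 3 called members with the largest change, members called lower with siRNA1 or in opposite directions, isoform pairs, the highest and lowest member, and up to 3 called genes per list; others were named after their values were seen. Genes below the filter were not tested.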

Additional observations from a re-analysis of the deposited data

How the results depend on the processing

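The counts of members higher with siRNA1 (56), lower with siRNA2 (27) and lower with siRNA2 than with siRNA1 (57) stayed within 1.5 times under all alternatives run. The replicate block gave 56, 28 and 56. Deviations from the group means correlated at -0.53 to 0.49 between same-numbered libraries, and at -0.59 to 0.71 between differently numbered ones. With 3 libraries a group these values cannot tell whether the numbers pair libraries, and the labels do not say. Small counts moved. Members lower with siRNA1 (1) were 4 with the trend on exonic size removed and 1 to 2 with 1 library left out, the second being NDUFB6 or ATP5F1D. Members higher with siRNA2 (5) were 8 at a minimum mean FPKM of 1, 10 with the size trend removed and 3 to 10 with 1 library left out. Members higher with siRNA2 than with siRNA1 (3) were 6 with the size trend removed. Apart from construction of the fits, the cause was not tested. Of 181 called values of named genes, 29 lost their call under at least 1 alternative and 0 changed sign. With 3 libraries a group, fold changes near 0.2 on the log2 scale lie at the edge of what these libraries separate.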
